A study of Mus musculus with 6 samples.

Results

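The chaperones named as heat shock proteins, the DNAJA and DNAJB co-chaperones and the subunits of the chaperonin CCT were described in ribosome-associated RNA of D2 neurons of the mouse medial prefrontal cortex (mPFC). Members were the genes whose name in the deposited transcript table begins with Hspa, Hspb, Hspd, Hspe or Hsph and a number, with Hsp90, with Dnaja or Dnajb and a number, or with Cct and a number, and Tcp1, which encodes the first CCT subunit. Hspa5 and names marked as pseudogenes or related sequences were left out, which removed 12 genes that matched the pattern. This gave 53 of the 47729 genes and 240 of the 115220 transcripts in the table. Of the 53 genes, 10 belong to CCT, 4 to DNAJA, 13 to DNAJB, 3 to HSP110, 2 to the HSP60 and HSP10 pair of mitochondria, 10 to HSP70, 3 to HSP90 and 8 to the small HSPs.

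All 6 libraries came from adult male C57BL/6 mice that carried D2Cre, LSL-Flag-Cas9 and RiboTag, so that Cre made D2 cells express both Flag-tagged Cas9 and a hemagglutinin-tagged ribosomal protein Rpl22, whose immunoprecipitation brings down ribosome-associated RNA. Ctrl mice (3 libraries) received AAV GFP in the mPFC and Gsk3sKO mice (3 libraries) received AAV Gsk3 sgRNA/GFP, which guides Cas9 to the gene of the kinase GSK3β, with RNA taken 3 weeks later. Cas9 was present in both groups, the control virus carried GFP without a guide, and the tagged cells are those in which the D2 transgene drives Cre, infected or not. The labels do not say whether each library is 1 animal or a pool, so a p-value here reflects how far these libraries scatter, and that scatter may be technical alone. In such bulk samples, fewer cells of a type and less RNA per cell cannot be told apart.

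Chaperones bind proteins that are not yet folded or have lost their fold. HSP70 proteins hold short exposed stretches and are loaded by DNAJ co-chaperones, HSP110 proteins release their nucleotide, HSP90 takes over partly folded kinases and receptors, and CCT encloses actin and tubulin in a double ring of different subunits. The small HSPs hold denatured proteins without ATP. After heat or protein damage, the factor HSF1 binds heat shock elements, which are inverted repeats of the bases GAA, and raises the inducible members, while the constitutive members are abundant in neurons at rest.

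To show where such elements lie, the 250 bases before each RefSeq start were searched on both strands (GRCm38.p6). Promoters were available for 46 of the 53 member genes, 61 in all. None was available for Hsp90aa1, Hsp90ab1, Hspa8, Hspa9, Hspa13, Cct4 and Hspb2. Adjoining repeats in a run of 3, written GAANNTTCNNGAA, were found in 4 of the 61 promoters (6.56%) and in 0.466% of all 32851 promoters. The shorter pair GAANNTTC, which is part of the longer motif, was found in 13 of 61 (21.3%, against 6.69% of all promoters) and the other pair, TTCNNGAA, in 8 of 61 (13.1%, against 7.17%). These matches are descriptions of letters and not of bound sites. The sequences that follow were chosen because they hold the longest matches among the members searched or come from the most inducible ones. Capitals mark the motif, and overlapping matches run together. The matches of Hspe1, which encodes HSP10, and of Hspd1, which encodes HSP60, are the same bases, since these genes start 216 bases apart on opposite strands. The 2 promoters of Dnajb6 overlap and hold the same matches, and so do the 2 of Hsph1. The counts of promoters therefore exceed the counts of separate sites. By gene, the 3 motifs were found in 3, 12 and 6 of the 46, in the order given above. The stretch of Hspe1 is chr1:55088029-55088106 on the plus strand, that of Dnajb6 is chr5:29735822-29735894 on the plus strand, and that of Hspa1a is chr17:34972223-34972290 on the minus strand.
Hspe1: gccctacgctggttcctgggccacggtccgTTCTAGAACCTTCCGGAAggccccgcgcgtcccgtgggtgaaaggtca
Dnajb6: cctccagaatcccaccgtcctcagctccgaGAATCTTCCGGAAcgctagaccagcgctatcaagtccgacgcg
Hspa1a: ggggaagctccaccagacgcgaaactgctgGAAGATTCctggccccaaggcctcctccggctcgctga
The same stretch stands before Hspa1b, at chr17:34959305-34959372 on the minus strand. Over the 250 bases, the promoters of Hspa1a and Hspa1b were identical at 247 positions. An endoplasmic reticulum stress element, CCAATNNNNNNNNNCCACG, was found in 1 member promoter, that of Hsp90b1, and in 0.113% of all promoters. Its window, chr10:86705503-86705686 on the minus strand, held the motif once in each orientation, both in capitals, and is shown because Hsp90b1 is the HSP90 of the endoplasmic reticulum.
Hsp90b1: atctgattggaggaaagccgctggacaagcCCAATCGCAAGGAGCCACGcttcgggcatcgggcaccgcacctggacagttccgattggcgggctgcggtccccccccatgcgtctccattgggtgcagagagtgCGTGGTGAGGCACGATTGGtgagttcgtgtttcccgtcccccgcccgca

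Levels are FPKM, fragments per kilobase of transcript, scaled to the mapped fragments of the library, summed over the transcripts of a gene into a gene total. Differences are log2 fold changes, Gsk3sKO minus Ctrl, of log2(FPKM + 1), which understates changes of low genes, and they were tested with limma at an unadjusted p threshold of 0.05 with a Benjamini-Hochberg adjusted p over all features beside it. The depth is not stored in FPKM. An estimate from the steps between low values gave 23.5 to 45.0 M reads per library, and only 16.0% to 31.1% of those values lay within 0.02 of a whole read (4.0% if there were no spacing), so these depths are approximate. Gsk3b, the targeted gene, had gene totals of 35.6, 53.8 and 56.5 FPKM in Ctrl and 36.9, 37.0 and 33.6 FPKM in Gsk3sKO, with a log2 fold change of -0.40 (SE 0.19, exact permutation p = 0.3, limma p = 0.0648, adjusted p = 0.773) that did not pass the threshold. Without Ctrl replicate 1, the only Ctrl library within the range of Gsk3sKO, it was -0.61 and passed. These values are RNA levels. In mice, the paper judged the knockout by staining for GSK3β protein in animals without RiboTag, where most mPFC cells with Flag-Cas9 lacked the signal after the guide virus. In the cell line Neuro2A, it also reported mutations at the target site and less GSK3β protein with the guide. Drd2 itself, the defining gene of the tagged cells, was detected in every library, at 1.58 to 14.1 FPKM in Ctrl and 5.96 to 8.32 FPKM in Gsk3sKO. The summed markers of excitatory neurons were 899 to 1021 and 859 to 1065 FPKM, those of inhibitory neurons 990 to 1318 and 935 to 1029, those of astrocytes 150 to 182 and 150 to 199, those of oligodendrocytes 121 to 187 and 133 to 169, and those of microglia 22.4 to 34.5 and 16.4 to 22.1, Ctrl first. No listed marker was at 0 in all libraries. Among the markers, 3 of 7 oligodendrocyte and 2 of 6 tested microglial genes passed the test as lower in Gsk3sKO. So did 1 of 6 excitatory neuron genes, where 5.2% of all gene totals passed as lower. The log2 fold change was above 0 for 3 of the 7 oligodendrocyte, 1 of the 6 microglial and 2 of the 6 excitatory neuron genes. The part of these markers in the chaperone values was not tested.

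No chaperone gene total passed the threshold between Ctrl and Gsk3sKO. Of the 53 members, 40 had a mean of at least 1 FPKM and were tested, and 0 of these 40 had an unadjusted limma p under 0.05, where 6.56% of all 12874 gene totals did (5.2% lower and 1.36% higher in Gsk3sKO). After adjustment 0 members and 0.0466% of all gene totals were called. An ordinary linear model called 1 member, Cct5. The lowest p among the members was 0.065 and the adjusted p-values ran from 0.773 to 0.993. The log2 fold change was above 0 for 24 of the 40, against 41.1% of all gene totals, and its median was 0.04, against -0.06 over all gene totals. Scaling the libraries by median ratios moved the median of all gene totals to -0.004 and their calls from 669 lower and 175 higher to 503 lower and 306 higher. Under that scaling 29 of the 40 members lay above 0 and 3 passed, namely Cct5 (0.30), Hspa9 (0.37) and Tcp1 (0.47). The 95% interval of the log2 fold change stayed within 1 of 0 for 36 of the 40 members and within 0.5 of 0 for 14, so that changes beyond these sizes lay outside the interval for those genes, while smaller ones could not be told from 0 with 3 libraries per group.

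**Figure D1:**
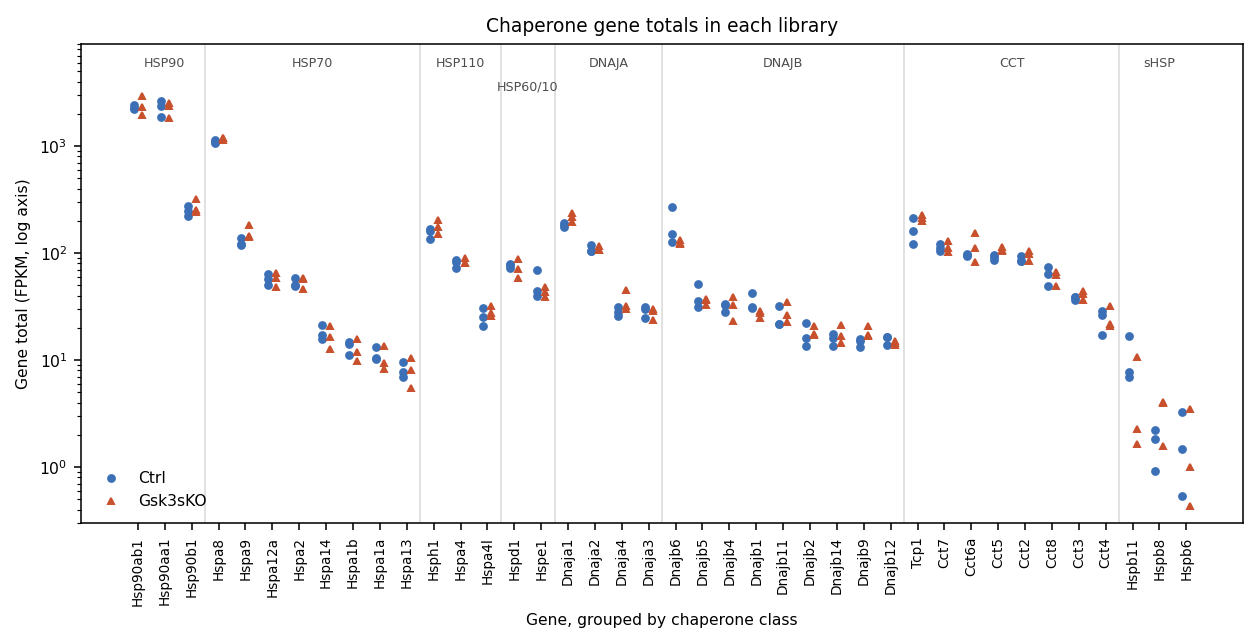
Gene totals of the 40 tested chaperone genes (vertical axis, FPKM on a log scale) in each of the 3 Ctrl libraries (circles) and 3 Gsk3sKO libraries (triangles), grouped by class, with the small HSPs as sHSP. Hsp90ab1, Hsp90aa1 and Hspa8 lie above 1000 FPKM in every library, and the points of both groups overlap for 35 of the 40 genes.

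The groups did not overlap for 5 of the 40 gene totals, where 12% of all gene totals did not (3.71% with Gsk3sKO higher, 8.3% with Gsk3sKO lower). Gsk3sKO was higher for Dnaja1, Hspa9, Cct5 and Dnajb9, and lower for Dnajb1. With 3 libraries against 3, the exact permutation test cannot give a two-sided p below 0.1, which is its value for each of these 5 genes, and none of them passed limma. Gsk3sKO replicate 3 was the library with the highest value for 17 of the 40 members (42.5%), where it was the highest for 17.7% of all gene totals. The other libraries held the highest value for 8, 1 and 3 members (Ctrl replicates 1 to 3) and for 7 and 4 members (Gsk3sKO replicates 1 and 2). The same Gsk3sKO replicate 3 also held the lowest value for 12 of the 40 members, where each other library did so for 2 to 9.

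The HSP90 class held the most abundant members, and the groups overlapped for each of its genes. Hsp90ab1 (chr17:45567775-45573271), the constitutive cytosolic HSP90, ranked 12 of all gene totals by mean level, with 2246, 2391 and 2230 FPKM in Ctrl and 2312, 2939 and 1940 FPKM in Gsk3sKO. The highest and the lowest of these values both came from Gsk3sKO, and the log2 fold change was 0.05 (95% interval -0.42 to 0.51). Hsp90aa1 (chr12:110690605-110702728), the inducible cytosolic HSP90, ranked 14, with 1861, 2388 and 2647 FPKM in Ctrl and 1813, 2362 and 2533 FPKM in Gsk3sKO. Its values spanned almost the same range in both groups (log2 fold change -0.04, 95% interval -0.54 to 0.46). Hsp90b1, which folds secreted and membrane proteins in the endoplasmic reticulum, was lower in level, at 276, 224 and 247 FPKM in Ctrl and 254, 240 and 321 FPKM in Gsk3sKO. Only Gsk3sKO replicate 3 lay above the Ctrl range (log2 fold change 0.12, 95% interval -0.24 to 0.48). The ratio of Hsp90ab1 to Hsp90aa1 ran from 0.766 to 1.28 over the libraries, so that neither gene was the higher in all of them.

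These totals depend on how the authors' assembler divided reads among transcripts. Of the Hsp90aa1 total, 79.5% was assigned to a 924-base transcript annotated as a retained intron (ENSMUST00000145255), with a share of 71.9% to 85.4% in the single libraries. The full coding transcript of Hsp90aa1 (ENSMUST00000094361) stood at 373, 340 and 306 FPKM in Ctrl and 354, 447 and 454 FPKM in Gsk3sKO. Only Gsk3sKO replicate 1 fell within the Ctrl range, and the log2 fold change of this transcript was 0.30 (exact permutation p = 0.2, limma p = 0.0892), below the threshold of the test. For Hsp90ab1, the coding transcript ENSMUST00000024739 made up 63.0% to 81.1% of the total in Ctrl and 56.2% to 95.2% in Gsk3sKO. The retained-intron transcript ENSMUST00000145205 of Hsp90ab1 was at 389, 792 and 447 FPKM in Ctrl and 540, 966 and 6.49 FPKM in Gsk3sKO. The highest and the lowest of these values were thus both in Gsk3sKO. Between the leading coding transcripts alone, Hsp90ab1 was 3.70 to 5.66 times Hsp90aa1 in every library. Pseudogene copies also bear on these totals: 66.7% of the 50-base stretches in the leading Hsp90aa1 transcript recur in another gene, mainly Gm12346, which was listed at 102 to 141 FPKM.

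**Figure D2:**
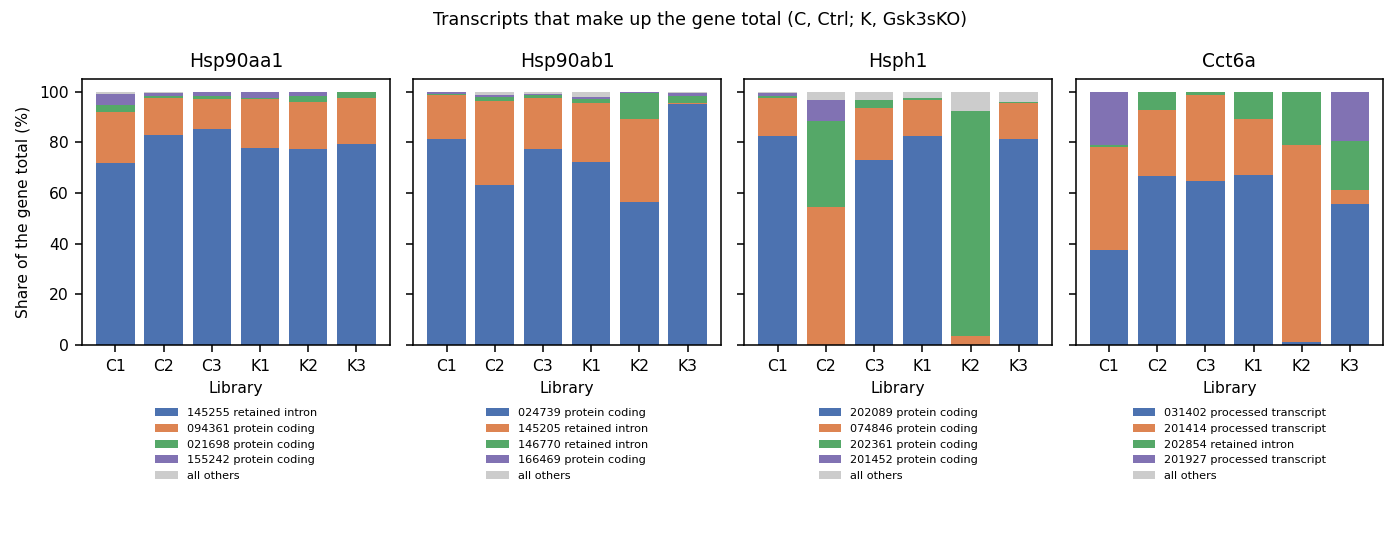
Share of the gene total (vertical axis, %) assigned to each transcript of Hsp90aa1, Hsp90ab1, Hsph1 and Cct6a in the 6 libraries (C1 to C3, Ctrl; K1 to K3, Gsk3sKO), with the 4 most abundant transcripts named by the last digits of their identifier. The retained-intron transcript fills 71.9% to 85.4% of Hsp90aa1, while the leading transcripts of Hsph1 and Cct6a drop to 0% in C2 and K2 and to 1.33% in K2, respectively.

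Among the HSP70 genes, the constitutive Hspa8 stood far above the inducible pair Hspa1a and Hspa1b in both groups, and none of the 8 tested genes passed. Hspa8 (chr9:40800984-40810087), the main HSP70 of unstressed neurons and the uncoating ATPase of clathrin vesicles, had gene totals of 1083, 1066 and 1145 FPKM in Ctrl and 1178, 1141 and 1192 FPKM in Gsk3sKO. Gsk3sKO replicate 2 lay just below the highest Ctrl library, and the log2 fold change was 0.09 (95% interval -0.23 to 0.42). Its leading transcript, ENSMUST00000117557, had 835, 884 and 961 FPKM in Ctrl and 974, 986 and 1031 FPKM in Gsk3sKO. For this transcript the groups did not overlap, by a small margin, and the log2 fold change of 0.16 did not pass (exact permutation p = 0.1, limma p = 0.19). Of its 50-base stretches 84.4% recur in another gene, mostly in the pseudogene Gm15459, which was listed at 159 to 186 FPKM, so reads could have been exchanged between these copies.

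Hspa9, the HSP70 of the mitochondrial matrix that draws imported proteins inward, had 121, 119 and 137 FPKM in Ctrl and 145, 141 and 183 FPKM in Gsk3sKO. All Gsk3sKO libraries lay above all Ctrl libraries, with replicate 3 set apart from the others, and the log2 fold change was 0.30 (SE 0.15, exact permutation p = 0.1, limma p = 0.071, adjusted p = 0.779). Without Gsk3sKO replicate 3 it was 0.18. Hspa1b had 14.2, 11.3 and 14.6 FPKM in Ctrl and 15.7, 11.8 and 9.83 FPKM in Gsk3sKO. Hspa1a had 13.2, 10.3 and 10.4 FPKM in Ctrl and 13.4, 9.40 and 8.29 FPKM in Gsk3sKO. In both of these stress-inducible genes the highest and the lowest values were in Gsk3sKO, and the log2 fold changes were -0.11 (95% interval -0.59 to 0.37) and -0.13 (95% interval -0.63 to 0.37). The pair cannot be separated well by sequence, since 60.3% of the 50-base stretches of Hspa1a and 62.3% of those of Hspa1b recur in another gene, the main one being the other member of the pair. Hspa8 was 82.0 to 110 times Hspa1a in Ctrl and 87.6 to 144 times Hspa1a in Gsk3sKO. The other tested HSP70 genes, Hspa12a, Hspa2, Hspa14 and Hspa13, had means between 8.05 and 57.3 FPKM and log2 fold changes between -0.12 and 0.02.

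The HSP110 genes, exchange factors of HSP70, had log2 fold changes above 0 for 3 of 3, none of which passed. Hsph1, the inducible HSP110, had 160, 136 and 166 FPKM in Ctrl and 173, 151 and 202 FPKM in Gsk3sKO. The groups overlapped, with the second library the lowest of each group (log2 fold change 0.18, 95% interval -0.17 to 0.54). In exactly those second libraries the leading Hsph1 transcript, ENSMUST00000202089, was listed at 0, against 132 and 121 FPKM in the other Ctrl libraries and 143 and 164 FPKM in the other Gsk3sKO libraries. The coding transcript ENSMUST00000202361 of Hsph1 had 1.23, 46.3 and 5.27 FPKM in Ctrl and 1.09, 134 and 1.26 FPKM in Gsk3sKO. Its high values were thus in the libraries that lacked the leading transcript. Hspa4 and Hspa4l had mean totals of 82.1 and 26.95 FPKM and log2 fold changes of 0.07 and 0.16.

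The mitochondrial chaperonin pair had log2 fold changes below 0 and did not pass (both named after their values were seen, for the shared promoter above). Hspd1, the HSP60 ring, had 77.6, 78.3 and 72.3 FPKM in Ctrl and 71.2, 58.0 and 88.8 FPKM in Gsk3sKO (log2 fold change -0.09, 95% interval -0.47 to 0.30). Hspe1, the HSP10 lid of that ring, had 69.1, 43.9 and 40.0 FPKM in Ctrl and 43.7, 38.5 and 47.9 FPKM in Gsk3sKO (log2 fold change -0.19, 95% interval -0.68 to 0.29). Ctrl replicate 1 stood above all other libraries for Hspe1 but not for Hspd1. The ratio of Hspd1 to Hspe1 was accordingly lowest there, at 1.12, and between 1.51 and 1.85 in the other libraries.

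The DNAJA co-chaperones, which bring substrates to HSP70, were led by Dnaja1. Dnaja1 (chr4:40722150-40737149) had 192, 184 and 174 FPKM in Ctrl and 194, 216 and 237 FPKM in Gsk3sKO. The lowest Gsk3sKO library lay only just above the highest Ctrl library, and the log2 fold change was 0.23 (SE 0.13, exact permutation p = 0.1, limma p = 0.115, adjusted p = 0.792). When only transcripts annotated as protein-coding were summed, an alternative chosen after the data were seen, the log2 fold change of Dnaja1 was 0.30 and passed limma at the unadjusted threshold. Of the 50-base stretches of its leading transcript 67.8% recur in another gene, mainly the pseudogene Gm15542. Dnaja2, Dnaja3, the mitochondrial member, and Dnaja4 had log2 fold changes of 0.02, -0.06 and 0.30.

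In the DNAJB class, 4 of the 9 tested genes had a log2 fold change above 0 and 5 below, and Ctrl replicate 1 held the highest value of Dnajb6, Dnajb5 and Dnajb1. Dnajb6, a suppressor of aggregation by polyglutamine proteins whose promoter is shown above, had 268, 152 and 127 FPKM in Ctrl and 133, 123 and 120 FPKM in Gsk3sKO. Of the 50-base stretches of the leading Dnajb6 transcript 41.9% recur in another gene, mainly Gm6395. The highest value of Dnajb6, in Ctrl replicate 1, was far from the other libraries, which overlapped. The log2 fold change was -0.46 (SE 0.25, exact permutation p = 0.2, limma p = 0.105) and shrank to -0.15 without that library, while without Ctrl replicate 3 it was -0.68 and passed. Dnajb1, the inducible partner of HSP70 and HSF1, had 42.5, 30.9 and 31.0 FPKM in Ctrl and 27.8, 29.0 and 24.8 FPKM in Gsk3sKO. The 3 Gsk3sKO libraries lay below the 3 Ctrl libraries, 2 of which were close to them, and the log2 fold change was -0.33 (SE 0.17, exact permutation p = 0.1, limma p = 0.0824, adjusted p = 0.79). Without Ctrl replicate 1 it was -0.18. Dnajb9, a co-chaperone of the endoplasmic reticulum named after its values were seen, had 13.1, 15.6 and 14.9 FPKM in Ctrl and 16.7, 17.3 and 20.7 FPKM in Gsk3sKO. The groups were adjacent without overlap (log2 fold change 0.30, SE 0.16, exact permutation p = 0.1, limma p = 0.0982). The remaining 6 genes, Dnajb5, Dnajb4, Dnajb11, Dnajb2, Dnajb14 and Dnajb12, had means between 14.98 and 37.4 FPKM and log2 fold changes between -0.13 and 0.15.

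The CCT subunits had log2 fold changes above 0 for 7 of the 8 tested genes, with a median of 0.11, and none passed. Tcp1 (chr17:12915701-12925067) had 122, 161 and 214 FPKM in Ctrl and 215, 226 and 200 FPKM in Gsk3sKO. Ctrl was more scattered than Gsk3sKO and its highest library reached into the Gsk3sKO range (log2 fold change 0.40, SE 0.20, exact permutation p = 0.2, limma p = 0.0794, adjusted p = 0.781). Without Ctrl replicate 3, the log2 fold change of Tcp1 was 0.60 and passed, and without Ctrl replicate 1 it was 0.20 and did not. Cct5 (chr15:31590800-31601804) had 86.5, 96.0 and 92.5 FPKM in Ctrl and 105, 106 and 114 FPKM in Gsk3sKO. Both groups were tight and did not overlap, with a log2 fold change of 0.24 (SE 0.12, exact permutation p = 0.1, limma p = 0.0775, adjusted p = 0.78). It passed in an ordinary linear model, and in limma without the filter on low values or with median-ratio scaling.

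The other subunits overlapped between the groups. Cct7 had 104, 110 and 122 FPKM in Ctrl and 112, 130 and 101 FPKM in Gsk3sKO (log2 fold change 0.02). Cct6a had 93.1, 96.8 and 97.1 FPKM in Ctrl and 111, 82.0 and 153 FPKM in Gsk3sKO (log2 fold change 0.22). Gsk3sKO libraries lay on both sides of the narrow Ctrl range of Cct6a, and its log2 fold change was 0.45 and passed without Gsk3sKO replicate 2, but was -0.0013 without Gsk3sKO replicate 3. Cct2 had 84.5, 83.4 and 92.9 FPKM in Ctrl and 98.1, 84.4 and 105 FPKM in Gsk3sKO (log2 fold change 0.13). Cct8 had 49.3, 64.0 and 73.9 FPKM in Ctrl and 62.4, 67.1 and 49.3 FPKM in Gsk3sKO (log2 fold change -0.06). For Cct8, the only subunit below 0, the lowest libraries of both groups were equal to 3 digits. Cct3 had 36.3, 38.5 and 39.2 FPKM in Ctrl and 43.8, 41.2 and 36.8 FPKM in Gsk3sKO (log2 fold change 0.09). Cct4 had 17.1, 28.5 and 26.2 FPKM in Ctrl and 31.8, 20.96 and 21.9 FPKM in Gsk3sKO (log2 fold change 0.06). The summed CCT level was 592, 679 and 758 FPKM in Ctrl and 779, 758 and 781 FPKM in Gsk3sKO, where Ctrl replicate 3 reached the Gsk3sKO range. The direction was not the same in every setting: 8 of 8 subunits lay above 0 under median-ratio scaling and 5 of 8 without Ctrl replicate 1.

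The order of the subunits by mean RNA level was alike in both groups, except that Cct7 and Cct6a changed places. Cct7 and Cct6a had means of 112 and 95.7 FPKM in Ctrl and 114 and 116 FPKM in Gsk3sKO. The assembled ring holds each subunit protein in equal number, but these RNA totals, which include transcripts not annotated as protein-coding, do not measure protein. Tcp1 was the highest and Cct4 the lowest in all 6 libraries, and the highest was 5.65 to 10.8 times the lowest within a library. The coefficient of variation over the 8 subunits was 48.6% to 60.8% in Ctrl and 58.4% to 66.8% in Gsk3sKO. By mean level the order was Tcp1, Cct7, Cct6a, Cct5, Cct2, Cct8, Cct3 and Cct4. The ranges over the 6 libraries were apart for the neighbours Cct2 and Cct8, Cct8 and Cct3, and Cct3 and Cct4. Neighbours above Cct2 in this order overlapped, so their order is within the spread between libraries, although Tcp1 was above Cct7 in 6 of 6 libraries.

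**Figure D3:**
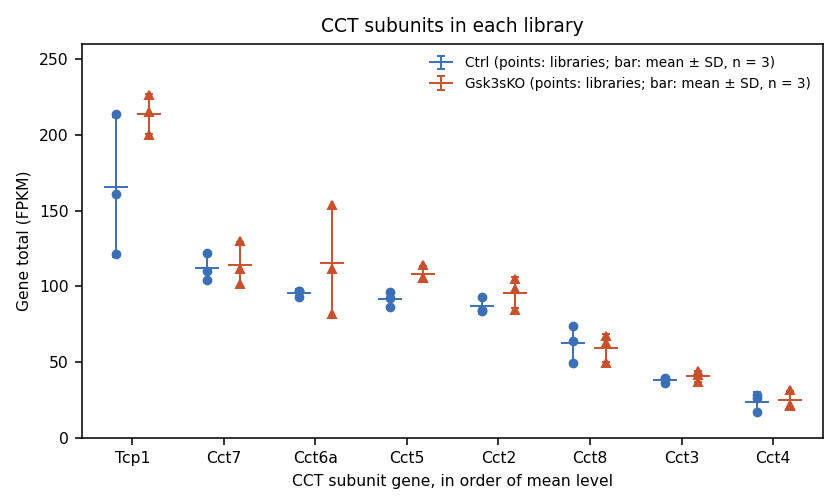
Gene totals of the 8 tested CCT subunits (vertical axis, FPKM, from 0) in order of mean level, with points for the 3 libraries of each group and bars for the mean ± SD (n = 3). Tcp1 is the highest and Cct4 the lowest subunit in all libraries, and the groups are apart for Cct5 alone.

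The small HSPs were low, and 3 of the 8 reached a mean of 1 FPKM. Hspb11, which despite its name is a subunit of the transport machinery of cilia, had 16.7, 7.66 and 6.92 FPKM in Ctrl and 10.7, 2.26 and 1.64 FPKM in Gsk3sKO. In each group the first library was far above the others, so the groups overlapped although the log2 fold change was -1.20 (SE 0.56, exact permutation p = 0.3, limma p = 0.065). Hspb8, a partner of BAG3 in selective autophagy, had 1.83, 2.23 and 0.928 FPKM in Ctrl and 1.57, 4.08 and 3.96 FPKM in Gsk3sKO. The groups of Hspb8 overlapped through Gsk3sKO replicate 1 (log2 fold change 0.63, SE 0.37, exact permutation p = 0.3, limma p = 0.123). With single libraries left out, the log2 fold change ran from -1.86 to -0.79 for Hspb11 and from 0.41 to 0.95 for Hspb8, and each passed without Gsk3sKO replicate 1. Both genes were chosen after their values were seen, for the largest log2 fold changes in either direction. Hspb1, the classical inducible HSP25, missed the filter, with 3.38, 0.885 and 0.136 FPKM in Ctrl and 0.168 FPKM in 1 Gsk3sKO library and a listing at 0 in the others. Ctrl replicate 1, the highest library for Hspb1, had the lowest summed endothelial and mural markers (18.5 and 8.83 FPKM) and the highest summed microglial markers (34.5 FPKM). Over all libraries the endothelial sum was 18.5 to 73.1 FPKM in Ctrl and 24.7 to 66.5 FPKM in Gsk3sKO, with 0 of 7 genes passing. The part of any of these markers in the small HSP values was not tested.

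The members that the filter left out were Hspb3, Hspa12b, Hspb1, Hspa1l, Dnajb3, Hspb2, Cct6b, Hspb9, Cct8l1, Hspb7, Dnajb7, Dnajb13 and Dnajb8, with means from 0 to 0.926 FPKM. Dnajb13 and Dnajb8 were listed at 0 in every library. Cct6b, Cct8l1 and Hspa1l, which are mainly known from the testis, did not exceed 1.12 FPKM in any library.

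**Figure D4:**
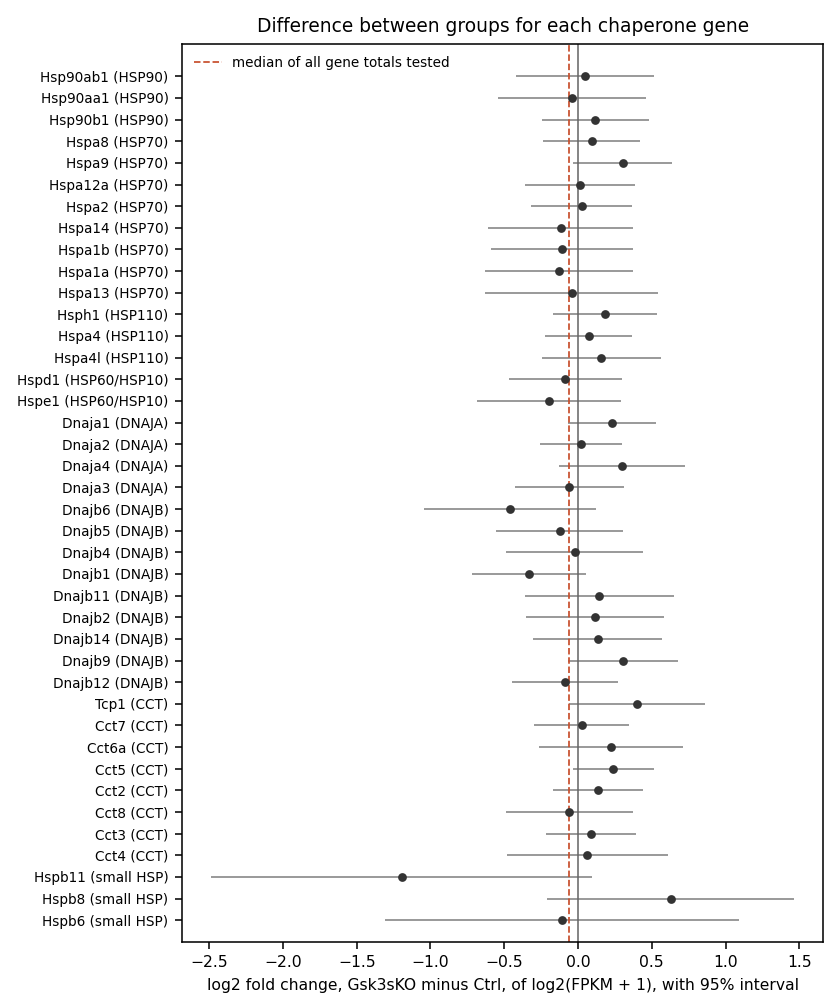
log2 fold change (Gsk3sKO minus Ctrl, of log2(FPKM + 1)) of the 40 tested chaperone genes with its 95% interval from limma, by class, and the median of all gene totals tested as a dashed line (-0.06). All 40 intervals include 0, and the widest belong to the low small HSP genes Hspb11 and Hspb6.

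A short list of genes known to be raised by HSF1 was also read together, and it does not hold every such gene. Of its 6 stress-inducible members, Hspa1a, Hspa1b, Hspb1, Dnajb1, Hsph1 and Hsp90aa1, 5 were tested and none passed. Of these 5, 4 had log2 fold changes below 0, and the median was -0.11. The value of Hsp90aa1 was -0.04, and 0.16 with protein-coding transcripts only. The summed level of the 6 genes was 2094, 2577 and 2870 FPKM in Ctrl and 2043, 2563 and 2778 FPKM in Gsk3sKO. Most of it was Hsp90aa1, and most of that gene was the retained-intron transcript described above, so the sum says little about the coding transcripts. Promoters of 46 member genes were searched, without Hsp90aa1, and Dnajb1 held no heat shock element motif of any form searched. Of these 46 genes, the 3 with the longest motif, Dnajb6, Hspd1 and Hspe1, had log2 fold changes of -0.46, -0.09 and -0.19. Hspd1 and Hspe1 share the same bases. Dnajb6 was at -0.15 without Ctrl replicate 1, and Hspd1 and Hspe1 reached 0.064 and 0.041 with single libraries left out. Tested genes with only a pair motif were above 0 for Cct2, Cct5, Dnaja1, Dnaja4 and Hsph1 and below 0 for Hspa1a, Hspa1b, Hspb6 and Dnajb4. A relation between motif and change was not tested.

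Single transcripts passed the test in 5 cases. Of the 240 chaperone transcripts, 107 had a mean of at least 1 FPKM, and 5 of these had an unadjusted limma p under 0.05 (4.67%), where 5.56% of all 21584 transcripts did. They were 2 higher and 3 lower in Gsk3sKO, where 1.81% and 3.75% of all transcripts were called in these directions. The log2 fold change was above 0 for 51 of the 107 transcripts, against 44.8% of all transcripts. With Benjamini-Hochberg adjustment limma called 0 chaperone transcripts and 0 transcripts in all, and the adjusted p-values of the 5 were 0.634 to 0.842. Cct6a ENSMUST00000202854, an 800-base retained-intron transcript, had 0.749, 6.68 and 1.08 FPKM in Ctrl and 12.1, 17.1 and 29.8 FPKM in Gsk3sKO. The groups were well apart, and it rose by 2.68 on the log2 scale (SE 0.64, exact permutation p = 0.1, limma p = 0.0052). It made up 10.7% of the Cct6a total over all libraries, and the leading Cct6a transcript ENSMUST00000031402, annotated as a processed transcript, stood at 34.9, 64.5 and 62.7 FPKM in Ctrl and 74.5, 1.09 and 85.2 FPKM in Gsk3sKO. Gsk3sKO replicate 2 alone was near 0 for that transcript, and in that library 77.6% of the total was assigned to ENSMUST00000201414.

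Hsph1 ENSMUST00000200805, a coding transcript of 587 bases, was listed at 0 in 1 Ctrl library and had 0.439 and 0.399 FPKM in the others, against 2.12, 1.45 and 2.46 FPKM in Gsk3sKO. It rose by 1.24 (SE 0.42, exact permutation p = 0.1, limma p = 0.0234), and it made up 0.696% of the Hsph1 total over all libraries. Dnajb4 ENSMUST00000144950 had 12.8, 7.14 and 4.01 FPKM in Ctrl and 1.79, 2.48 and 3.34 FPKM in Gsk3sKO. It fell by 1.25 (SE 0.44, exact permutation p = 0.1, limma p = 0.0275) without overlap of the groups. The leading Dnajb4 transcript ENSMUST00000050073 had 13.9, 22.3 and 27.95 FPKM in Ctrl and 27.9, 19.3 and 33.1 FPKM in Gsk3sKO, which overlapped (log2 fold change 0.33, exact permutation p = 0.5, limma p = 0.335).

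Dnajb11 ENSMUST00000166487 had 6.78, 11.99 and 13.2 FPKM in Ctrl and 2.80, 0.941 and 7.67 FPKM in Gsk3sKO. It fell by 1.496 (SE 0.58, exact permutation p = 0.2, limma p = 0.0406) with 1 Gsk3sKO library inside the Ctrl range. The leading transcript of Dnajb11, an endoplasmic reticulum partner of the HSP70 BiP, was ENSMUST00000004574, with 25.5, 9.02 and 7.40 FPKM in Ctrl and 19.8, 25.3 and 27.4 FPKM in Gsk3sKO. Its log2 fold change was 0.93 (exact permutation p = 0.3, limma p = 0.0801), of opposite sign to that of ENSMUST00000166487, and the Dnajb11 gene total overlapped between the groups (log2 fold change 0.15). Hspa4 ENSMUST00000151854, annotated as a processed transcript, had 13.9, 3.13 and 5.39 FPKM in Ctrl and 4.14, 0.393 and 0.319 FPKM in Gsk3sKO. It fell by 1.79 (SE 0.72, exact permutation p = 0.2, limma p = 0.046) with overlapping groups, and it made up 5.54% of the Hspa4 total. The calls of the Dnajb4, Dnajb11 and Hspa4 transcripts each ended when any of 4 single libraries was left out, and those of the Cct6a and Hsph1 transcripts held whichever library was left out. The groups did not overlap for 10 transcripts with Gsk3sKO higher and 5 with Gsk3sKO lower, of 107, where 4.28% and 6.96% of all transcripts did not.

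**Figure D5:**
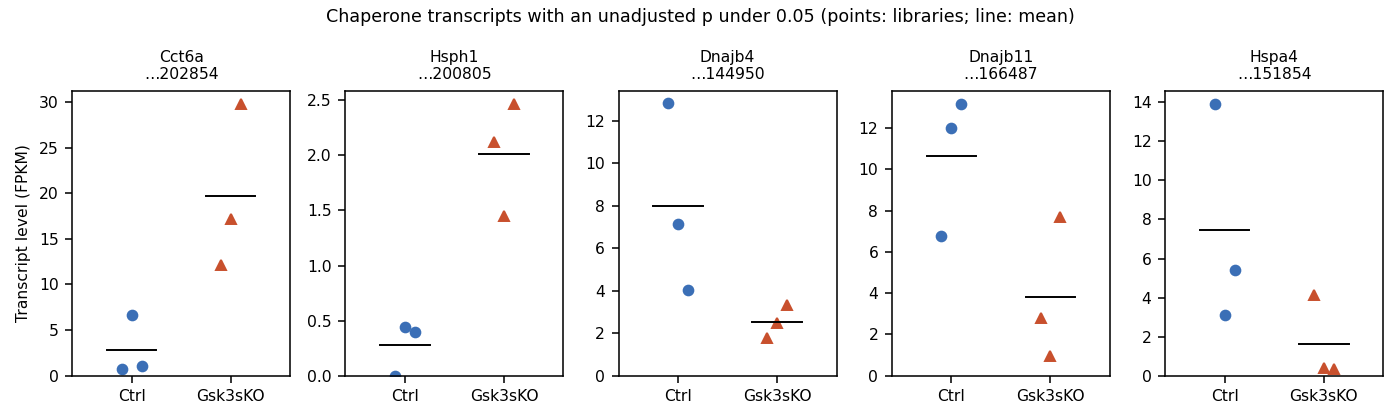
Level (vertical axes, FPKM, from 0, each panel with its own scale) of the 5 chaperone transcripts with an unadjusted limma p under 0.05 in the 3 Ctrl and 3 Gsk3sKO libraries, with a line at the mean. The Cct6a, Hsph1 and Dnajb4 transcripts have no overlap between the groups, and those of Dnajb11 and Hspa4 do.

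The factors that work with these chaperones were read from a list of 74 genes, made of heat shock factors and an HSF-binding protein, co-chaperones of HSP70 and HSP90, prefoldin and CCT partners, the DNAJC genes and other chaperones outside the name rule. Of the 72 with a mean of at least 1 FPKM, 3 had an unadjusted limma p under 0.05 (4.17%), against 6.56% of all gene totals. The CCT regulator Pdcl3 had 4.05, 3.68 and 2.85 FPKM in Ctrl and 1.35, 1.47 and 1.94 FPKM in Gsk3sKO. It fell by 0.81 (SE 0.26, exact permutation p = 0.1, limma p = 0.0146, adjusted p = 0.688) without overlap of the groups. Its relative Pdcl, which helps CCT to assemble G protein βγ pairs, had 30.7, 15.3 and 11.7 FPKM in Ctrl and 8.44, 9.42 and 12.5 FPKM in Gsk3sKO. It fell by 0.77 (SE 0.33, exact permutation p = 0.2, limma p = 0.0453, adjusted p = 0.751) with overlap, and Ctrl replicate 1 was again far above the others. Dnajc2, a DNAJ protein of the ribosome exit that acts on new chains, had 36.1, 40.0 and 33.4 FPKM in Ctrl and 46.0, 47.4 and 57.2 FPKM in Gsk3sKO. It rose by 0.45 (SE 0.15, exact permutation p = 0.1, limma p = 0.015, adjusted p = 0.688) without overlap. Of the 10 HSP70 co-chaperones, 13 HSP90 co-chaperones and 7 other chaperones, 0 passed, with medians of -0.05, -0.04 and 0.04. The heat shock factors Hsf1, Hsf2 and Hsf4 had log2 fold changes of 0.17, -0.08 and -0.48, and the HSF-binding protein gene Hsbp1 had -0.45, none of which passed. In the list of 14 prefoldin and CCT partners, 11 log2 fold changes were below 0, as were 7584 of all 12874 gene totals. Their median was -0.17, against -0.06 over all gene totals, while 7 of 8 CCT subunits themselves lay above 0. Ctrl replicate 1 held the highest value of Pdcl3, Pdcl, Tbcc, Pfdn1, Pfdn6, Pfdn4 and Txndc9, and not of the other partners in this list. Without that library, 5 of 8 CCT subunits lay above 0. The contrast between these lists was not tested. Of the DNAJC genes, 24 were tested, 14 had log2 fold changes above 0 and Dnajc2 alone passed.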

How the data were processed

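The authors deposited FPKM values per transcript and library. The submitters' processing notes name HISAT2 2.1.0, SAMtools 1.9 and StringTie 1.3.4d on GRCm38, with settings not given in the sources used here. Per the file headers, a fold, a p-value and a q-value of the authors' own comparison were also deposited and were not used. Libraries were grouped by their labels. FPKM was summed by gene identifier, and features with a mean of at least 1 FPKM over the 6 libraries entered a fit on log2(FPKM + 1) by limma 3.58.1 (R 4.3.3, functions lmFit and eBayes with its trend option, no covariates), over all gene totals or all transcripts. A call is an unadjusted p under 0.05, and Benjamini-Hochberg adjusted p-values run over all features. Positions and transcript types are from GENCODE M21, promoters from RefSeq (GRCm38.p6). Shared sequence is the percentage of 50-base stretches found in annotated transcripts of other genes. It was over 20% for 10 of the 53 genes. Besides those given above, these were Hspd1 (44.8%), Hspe1 (36.1%), Hspb1 (58.9%) and Hspa14 (100%). For Hspa14 the match was to a separate annotated gene entry of the same name. In gene totals simulated with independent normal scatter, a log2 change of 1 was called for 92.0% of changed genes, and 5.18% of unchanged ones were called. Changes were placed only in genes above a minimum level, so this rate does not cover low members such as Hspb8 and Hspb6. Smaller changes were not simulated. Named with values were the 10 most abundant members, the CCT subunits, the stress-inducible subset, and the members and partners that passed. The members and lists were chosen with earlier results of these data known. Alternatives were the pseudocount, filter, scaling, test, replicate block and single libraries left out. Replicate numbers are not stated to pair the libraries.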

Additional observations from a re-analysis of the deposited data

How the results depend on the processing

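Against 0 chaperone gene totals called, the count was 1 without a filter (Cct5), 1 in an ordinary linear model (Cct5), 3 with median-ratio scaling, 1 with protein-coding transcripts only (a choice made after seeing the data) and 0 to 2 with single libraries left out (Dnajb6 and Tcp1 without Ctrl replicate 3, Hspb8 and Hspb11 without Gsk3sKO replicate 1, Cct6a without Gsk3sKO replicate 2). With a replicate block it was also 1 (Hspb11, log2 fold change -1.20). The deviations of same-numbered libraries from their group means correlated at -0.03, -0.01 and -0.08. The labels do not say what the replicate numbers stand for, and these values over all genes cannot settle it. Against 5 transcripts called, the count was 8 without a filter, 3 at a mean of at least 5 FPKM, 3 in an ordinary linear model and 3 to 8 with single libraries left out. The transcript calls of Dnajb4 (without Ctrl replicate 1 or 2 or Gsk3sKO replicate 1 or 2), Dnajb11 (without Ctrl replicate 2 or 3 or Gsk3sKO replicate 1 or 2) and Hspa4 (without Ctrl replicate 1 or 3 or Gsk3sKO replicate 2 or 3) ended, with log2 fold changes in those fits of -1.26 to -0.88, -1.46 to -0.97 and -1.89 to -1.28. Against 3 partner genes, the count was 6 with protein-coding transcripts only and 1 to 7 with single libraries left out (1 without Ctrl replicate 2, 7 without Ctrl replicate 3). The Gsk3b log2 fold change ran from -0.61 to -0.28 with single libraries left out.

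Several directions turned. With median-ratio scaling and with protein-coding transcripts only, the log2 fold change became 0.026 and 0.16 for Hsp90aa1 and 0.0064 and 0.079 for Cct8, and with protein-coding transcripts only it became -0.042 for Cct4. With single libraries left out, it ran from -0.11 to 0.19 for Hsp90ab1, -0.18 to 0.10 for Hsp90aa1, -0.0075 to 0.20 for Hsp90b1, -0.073 to 0.11 for Cct7, -0.0013 to 0.45 for Cct6a, -0.22 to 0.071 for Cct8, -0.16 to 0.20 for Cct4, -0.28 to 0.036 for Hspa1b, -0.32 to 0.0025 for Hspa1a, -0.35 to 0.041 for Hspe1 and -0.24 to 0.064 for Hspd1. The causes were not tested. The pseudocounts of 0.1 and 0.5 changed no count by more than 1.5 times.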
